A study of Mus musculus with 8 samples.

Results

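The ascending and the descending aorta of newborn mice without fibulin-4 were compared with each other. The comparison holds 4 of the 8 arrays of the series, taken by their titles: 2 of knockout ascending and 2 of knockout descending aorta. Large arteries need fibulin-4, which cells secrete into the matrix, to build elastic fibres and to cross-link collagen. All mice were of strain C57BL/6 at postnatal day 0, and the knockout pups lacked the fibulin-4 gene altogether, not in one cell type. Wild-type pups of the same strain and age gave the other 4 arrays, which serve here as the reference for the normal difference between the segments. By the labels, the ascending piece began at the aortic valve and ended at the ductus arteriosus, so it takes in the arch, and the descending piece lay between vena cava and diaphragm. Each array carried RNA of 1 segment pooled from 8 pups, amplified from 5 ng of total RNA. The labels name the arrays of a group as biological replicates, so the spread between them is that between pools, and no array stands for 1 animal.

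The segments have different origins. Smooth muscle of the ascending aorta and arch comes from cardiac neural crest and from the second heart field, while that of the descending aorta comes from mesoderm beside the somites. Cells keep a memory of their place along the body axis in the Hox transcription factor genes, which are active from a forward boundary towards the tail. In mice without fibulin-4 the ascending aorta is known as the site where aneurysms form, and the descending aorta is known as long and tortuous.

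The values are log2 of RMA intensity, so a difference of 1 is a doubling on that scale. Array medians over named genes lay between 4.98 and 5.08 on all 8 arrays. The 4 knockout arrays had interquartile ranges of 2.20 to 2.28. The replicate 2 arrays of both wild-type groups were narrower, at 1.80 (ascending) and 1.74 (descending). Across 22180 genes, Spearman's rho was 0.962 between the knockout ascending arrays, 0.966 between the knockout descending arrays, and 0.955 to 0.961 between arrays of different segments. Smooth muscle markers had a mean value of 9.24 and 9.27 on the ascending and 9.13 and 9.09 on the descending knockout arrays, with Acta2 between 12.10 and 12.45. The pools were not alike in sex: Eif2s3y, on the Y chromosome, read 5.25 and 5.63 in ascending but 5.29 and 7.50 in descending knockout aorta, and Xist, made by the inactive X, had 8.93 and 9.28 in ascending and 8.55 and 7.28 in descending knockout aorta. Whether the sex of the pups moves other results was not tested.

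No gene passed the test for a difference between the knockout segments. With limma and Benjamini-Hochberg adjustment over 22180 genes, 0 genes (0%) had an adjusted p under 0.05. An unadjusted p under 0.05 was found in 895 (4.04%), of which 443 (2%) were higher and 452 (2.04%) lower in ascending aorta. That share lies below the 5% of tests that fall under 0.05 with no difference in any gene. It depends on the fit. With only the 4 knockout arrays, 1815 of 22180 genes had a limma unadjusted p under 0.05, and with array weights 1910. Both of these shares lie above 5%. With all 8 arrays and no weights, 2 genes (0.00902%) had an adjusted p under 0.1: Ptn, higher, and Hhip, lower in ascending aorta. Both passed 0.05 without the dimmest 25% of genes and with limma's trend and robust options, and 18 genes passed with array weights. By sign alone, 10702 genes (48.3%) lay above and 11478 (51.7%) below 0. A log2 difference of 1 or more, in either direction, was found in 374 genes (1.69%). For 4055 genes (18.3%) both ascending arrays lay above both descending arrays, and for 4624 (20.8%) both lay below, 39.1% in all. With 2 arrays against 2, an exact permutation test of a single gene cannot go below p = 0.333, so the calls rest on the spread that limma pools over genes. The sections that follow therefore give values, and "higher" or "lower" describes the arrays measured.

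The knockout shared the wild-type difference between the segments in part. The knockout and wild-type comparisons use separate arrays for their differences, but share the spread that limma estimates from the arrays of both genotypes. Over 22180 genes their segment differences correlated with Pearson's r of 0.157 and Spearman's rho of 0.147, and signs matched in 54.9%. This is a description across genes, which are not independent replicates. Over the 5545 brightest genes r was 0.306 and signs matched in 58.4%. Of the 895 genes with an unadjusted p under 0.05 in the knockout, 593 (66.3%) had the same sign in wild-type. Of the 443 higher ones, 163 (36.8%) also had both wild-type ascending arrays above both descending arrays, against 15.9% of all genes, and 65 had an unadjusted p under 0.05 there. Of the 452 lower ones, 179 (39.6%) also had both wild-type ascending arrays below, against 14.1% of all genes, and 84 had an unadjusted p under 0.05. Because the spread is shared, a small knockout p also favours genes whose wild-type replicates lie close together. That can raise the shares of non-overlapping wild-type arrays in either direction. The share in the opposite direction was not counted among these genes, so these shares alone cannot show a shared order. Over all genes, with no choice by p, 1787 (8.06%) had the same order without overlap in both genotypes. The opposite order without overlap was found in 920 (4.15%). In wild-type itself 2 genes were called (0.00902%), Tcf21 and Cxcl13, and 1374 (6.19%) had an unadjusted p under 0.05.

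**Figure D1:**
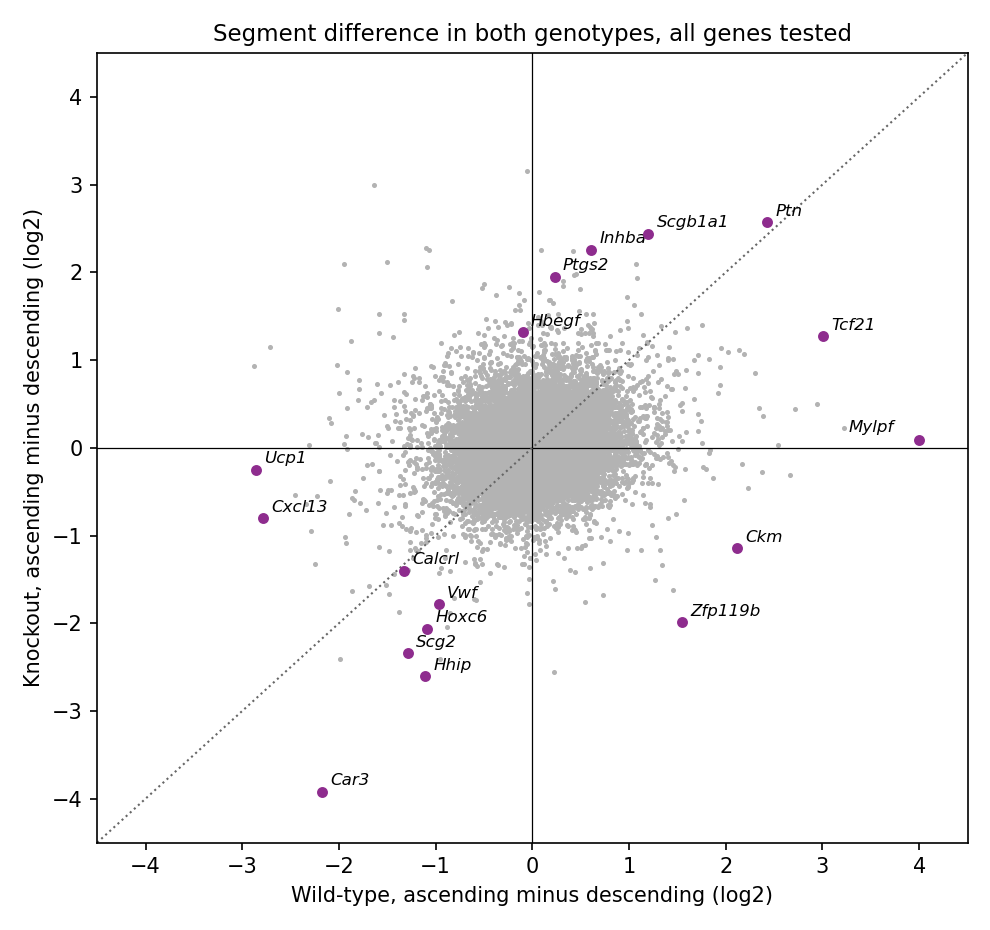
Segment difference (ascending minus descending, log2) of every gene tested, wild-type on the horizontal and knockout on the vertical axis; grey points are genes, purple points are named genes, and the dotted line marks equal differences. Ptn lies near that line at 2.43 and 2.57. Inhba and Ptgs2 lie high on the knockout axis and at 0.61 and 0.23 on the wild-type axis. Mylpf and Ucp1 lie far out on the wild-type axis and near 0 on the knockout axis.

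Ptn had the smallest p among genes higher in ascending aorta. It encodes pleiotrophin, a heparin-binding growth factor of developing tissues. Its log2 value was 9.62 and 9.55 in knockout ascending aorta and 6.93 and 7.09 in knockout descending aorta. The difference of 2.57 (SE 0.28), or 5.95-fold, had a limma adjusted p of 0.0621. In wild-type the arrays read 9.30 and 9.55 against 7.30 and 6.70, a difference of 2.43. The segment differences of Ptn in the genotypes lay 0.14 apart (limma unadjusted p = 0.724).

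The other genes ranked highest had smaller differences in wild-type than in the knockout. Inhba encodes the subunit of activin A, a ligand of the TGF-beta family. It had 6.51 and 7.01 in knockout ascending and 4.60 and 4.40 in knockout descending aorta. The log2 difference was 2.26 (SE 0.34, limma adjusted p = 0.18), against 0.61 in wild-type. Ptgs2 encodes cyclooxygenase-2, the inducible enzyme of prostaglandin synthesis. Its values were 6.81 and 7.82 against 5.21 and 5.51, a difference of 1.95 (SE 0.34, limma adjusted p = 0.335), while all 4 wild-type arrays lay between 4.54 and 4.99. Hbegf, a ligand of the EGF receptor that is shed from the cell surface, had 7.75 and 8.03 against 6.49 and 6.66. Its difference was 1.32 (SE 0.29, limma adjusted p = 0.55), against -0.10 in wild-type. For Inhba, Ptgs2 and Hbegf both knockout ascending arrays stood above all 6 other arrays. The difference between genotypes was 1.65, 1.72 and 1.42 for these 3 genes, and limma's adjusted p for it was 1 for each.

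The ranked genes also hold 2 secretoglobins of the airway. Scgb1a1 and Scgb3a2 encode small proteins secreted by club cells. Scgb3a2 had 6.41 and 7.02 in knockout ascending and 4.67 and 4.28 in knockout descending aorta, a difference of 2.24 (SE 0.32, limma adjusted p = 0.156). Scgb1a1 had 5.94 and 6.89 against 3.40 and 4.56, a difference of 2.44 (SE 0.49, limma adjusted p = 0.534). In wild-type their differences were 0.42 and 1.2. Sprr1a, a small proline-rich protein of squamous epithelium that is also made in stressed heart and nerve, had 6.39 and 7.11 against 4.59 and 4.96, a difference of 1.98. The 4 lung epithelium markers measured were split: Sftpc differed by -0.31, Sftpb by -0.18 and Nkx2-1 by -0.10, while Sftpa1 had 4.86 and 4.88 against 4.61 and 4.64 (0.25), higher without overlap. These markers had a median of -0.14 and a mean value of 4.77 and 5.07 on the ascending and 5.30 and 4.72 on the descending knockout arrays. Scgb2b24 (1.74), Zfp932 (1.68) and Skint5 (1.68) completed the 10 higher genes. All 3 are dim, with a mean level in the lowest 13.4%, 2.56% and 4.5% of genes, and the deposited values carry no detection call.

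**Figure D2:**
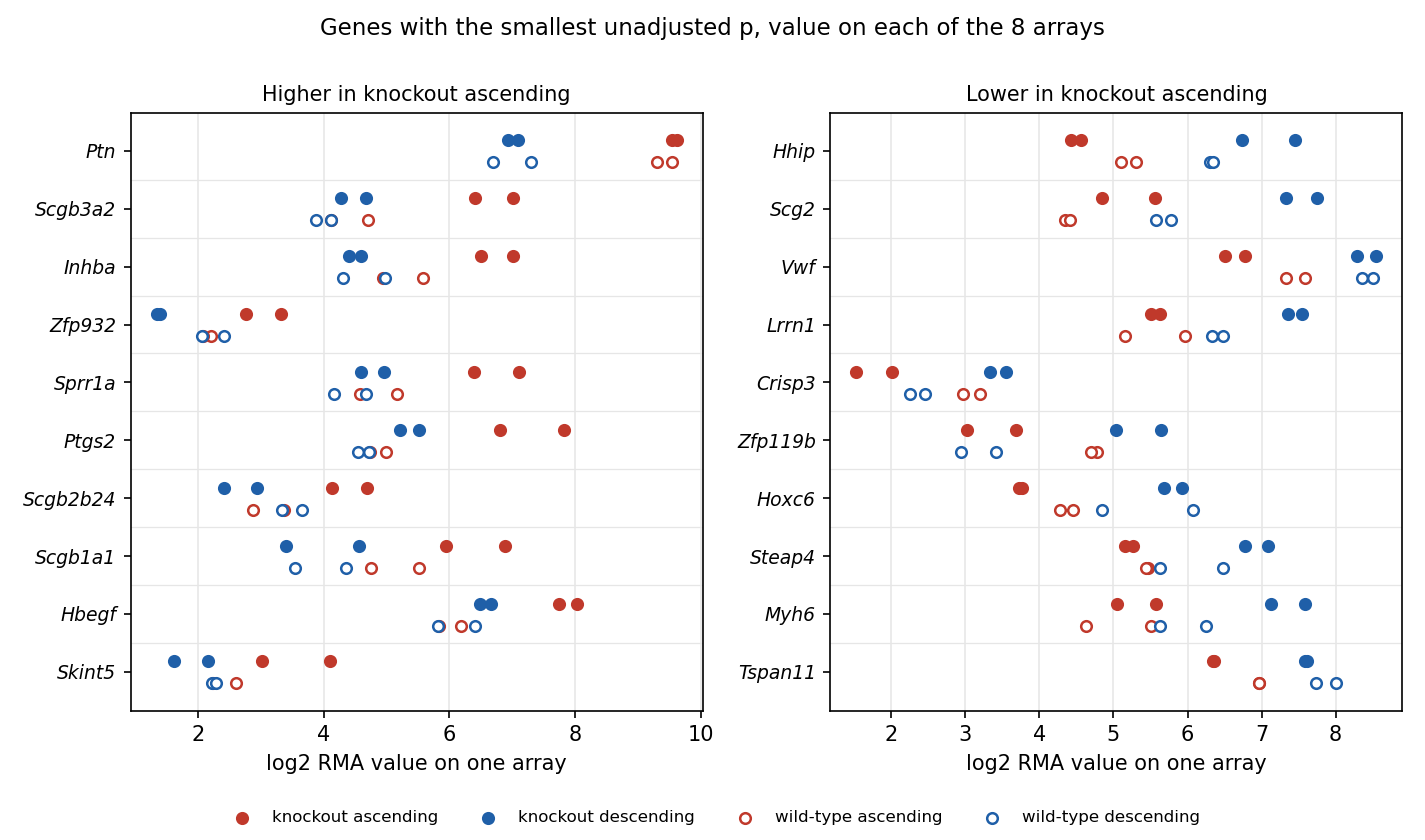
Log2 RMA value (horizontal axis) on each of the 8 arrays for the 10 genes ranked higher (left) and the 10 ranked lower (right) in knockout ascending aorta. Filled points are knockout arrays and open points wild-type arrays, red for ascending and blue for descending. Filled red and filled blue points do not overlap in any of the 20 genes, which the rule for choosing them required, while Crisp3 and Zfp119b have their wild-type points in the opposite order.

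Hhip was lowest in ascending relative to descending aorta by rank. It encodes the Hedgehog-interacting protein, which binds and holds Hedgehog ligands and is itself a target of the pathway. The values were 4.56 and 4.43 in knockout ascending and 6.74 and 7.45 in knockout descending aorta. The difference of -2.60 (SE 0.29), a 6.06-fold lower level, had a limma adjusted p of 0.0621. In wild-type it was -1.11, with 5.31 and 5.10 against 6.30 and 6.34, so the order of the segments was shared. Other Hedgehog genes were split. Gli3, a transcription factor of the pathway, had 6.27 and 6.82 against 7.26 and 7.39 (-0.78, limma unadjusted p = 0.0288), and the ligand gene Dhh 5.39 and 6.12 against 6.24 and 6.46 (-0.60), both lower without overlap. Gli1, a transcription factor and target, stood at -0.31, Smo at -0.29 and Gli2 at -0.16, while Ptch1, the receptor and target, stood at 0.01 and the ligand gene Shh at 0.10.

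Scg2 encodes secretogranin II, a protein of the dense-core vesicles of neuroendocrine cells and neurons. It had 4.85 and 5.56 in knockout ascending and 7.75 and 7.33 in knockout descending aorta, a difference of -2.34 (SE 0.30, limma adjusted p = 0.116), against -1.29 in wild-type. Lrrn1, a leucine-rich repeat membrane protein of neural tissue, had 5.63 and 5.51 against 7.55 and 7.36, a difference of -1.88 (SE 0.30, limma adjusted p = 0.236). Wild-type descending aorta had 5.77 and 5.58 for Scg2 and 6.48 and 6.33 for Lrrn1, below both knockout descending arrays of the same gene. Tspan11, a tetraspanin, had 6.35 and 6.34 against 7.61 and 7.59, a difference of -1.26 that compares with -0.90 in wild-type. Steap4, a metalloreductase of adipose and inflamed tissue, stood at -1.72, and Crisp3 (-1.68) and Zfp119b (-1.99) were lower too, with levels in the lowest 5.59% and 26.6% of genes.

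Because Hhip, Scg2 and Ptn lead the 2 directions, the 250 bases before their transcription starts are shown, from RefSeq on GRCm38.p6, 5′ to 3′ on the minus strand. Capitals mark TGACGTCA, the palindromic cyclic AMP response element, which reads the same on both strands. The windows are chr8:80058009-80058258 for Hhip, chr1:79440027-79440276 for Scg2 and chr6:36810180-36810429 for Ptn.
Hhip: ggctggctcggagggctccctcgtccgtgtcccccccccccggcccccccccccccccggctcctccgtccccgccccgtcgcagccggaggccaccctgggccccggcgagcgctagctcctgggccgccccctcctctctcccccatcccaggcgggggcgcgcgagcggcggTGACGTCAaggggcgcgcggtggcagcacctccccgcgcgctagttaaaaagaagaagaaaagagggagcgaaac
Scg2: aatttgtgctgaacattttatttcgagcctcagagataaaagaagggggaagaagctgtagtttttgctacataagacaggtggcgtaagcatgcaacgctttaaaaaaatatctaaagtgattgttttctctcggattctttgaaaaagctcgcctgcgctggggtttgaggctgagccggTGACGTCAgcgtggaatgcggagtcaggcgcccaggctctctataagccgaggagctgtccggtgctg
Ptn: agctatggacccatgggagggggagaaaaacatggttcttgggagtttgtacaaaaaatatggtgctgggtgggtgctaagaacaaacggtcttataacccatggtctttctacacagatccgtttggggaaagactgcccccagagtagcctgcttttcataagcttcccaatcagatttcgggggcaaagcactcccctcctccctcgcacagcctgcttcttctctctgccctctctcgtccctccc
The match lies 75 to 68 bases before the start of Hhip and 68 to 61 bases before that of Scg2, and the Ptn window holds none. Of the 20 ranked genes, 15 had a window. A window with TGACGTCA was found for 2 of 8 lower genes and 0 of 7 higher genes. Over all windows it was in 508 of 32851 (1.55%), a share of windows and not of genes. TATAAA, searched on both strands, was found for 2 of those lower and 3 of those higher genes. It was in 12.4% of all windows and in none of the 3 shown. These are matches of letters in windows chosen after the values were seen, and no binding was measured.

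Hox genes were mostly lower in knockout ascending aorta. Of 39 listed, 36 were measured, and 29 of these were lower and 7 higher in knockout ascending aorta, with a median log2 difference of -0.30 beside -0.01 over all genes. None was called, 10 (all lower) had an unadjusted p under 0.05, against 2.04% of all genes, and in 23 both ascending arrays lay below both descending arrays, against 20.8% of all genes. Hoxc6 led with 3.76 and 3.72 in knockout ascending and 5.93 and 5.68 in knockout descending aorta, a difference of -2.06 (SE 0.37, limma adjusted p = 0.366). Hoxb8 had 3.45 and 2.65 against 5.08 and 4.49 (-1.74). Hoxb6 had 4.26 and 4.20 against 5.59 and 5.39 (-1.26). The groups do not overlap in any of these 3 genes.

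The lowest values lay in the middle of the clusters. Between paralogue groups 6 and 9, Hoxb7 (-1.23), Hoxa7 (-1.09), Hoxc8 (-0.98), Hoxa6 (-0.97), Hoxa9 (-0.81) and Hoxb9 (-0.70) were lower as well, as were the more anterior Hoxb3 (-1.19) and Hoxa5 (-1.13). Exceptions there were Hoxd8 (-0.34), Hoxc9 (-0.08) and Hoxd9 (0.11). From group 10 onwards values ran from -0.53 for Hoxd12 to 0.35 for Hoxc10, the highest of the 36, with Hoxd10 at 0.04 and Hoxa13 at 0.11. By cluster, the median was -0.60 for Hoxb (10 of 10 below 0), -0.32 for Hoxa (6 of 9), -0.28 for Hoxc (8 of 9) and -0.26 for Hoxd (5 of 8). In wild-type the median over all 36 was -0.09, and Hoxa5 (-1.59), Hoxb6 (-1.23), Hoxc6 (-1.09) and Hoxa6 (-1.05) were the members with the lowest values. Hoxa7 and Hoxb7 stood at 0.07 and -0.09 in wild-type, and the difference between genotypes (-1.17 and -1.15) had a limma adjusted p of 1. The anterior median of -0.32 was -0.19 without knockout descending replicate 1. Many Hox genes are dim here: 24 of the 36 lie at or below the median level of all genes, with a median difference of -0.28, against -0.42 in the 12 brighter ones.

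**Figure D3:**
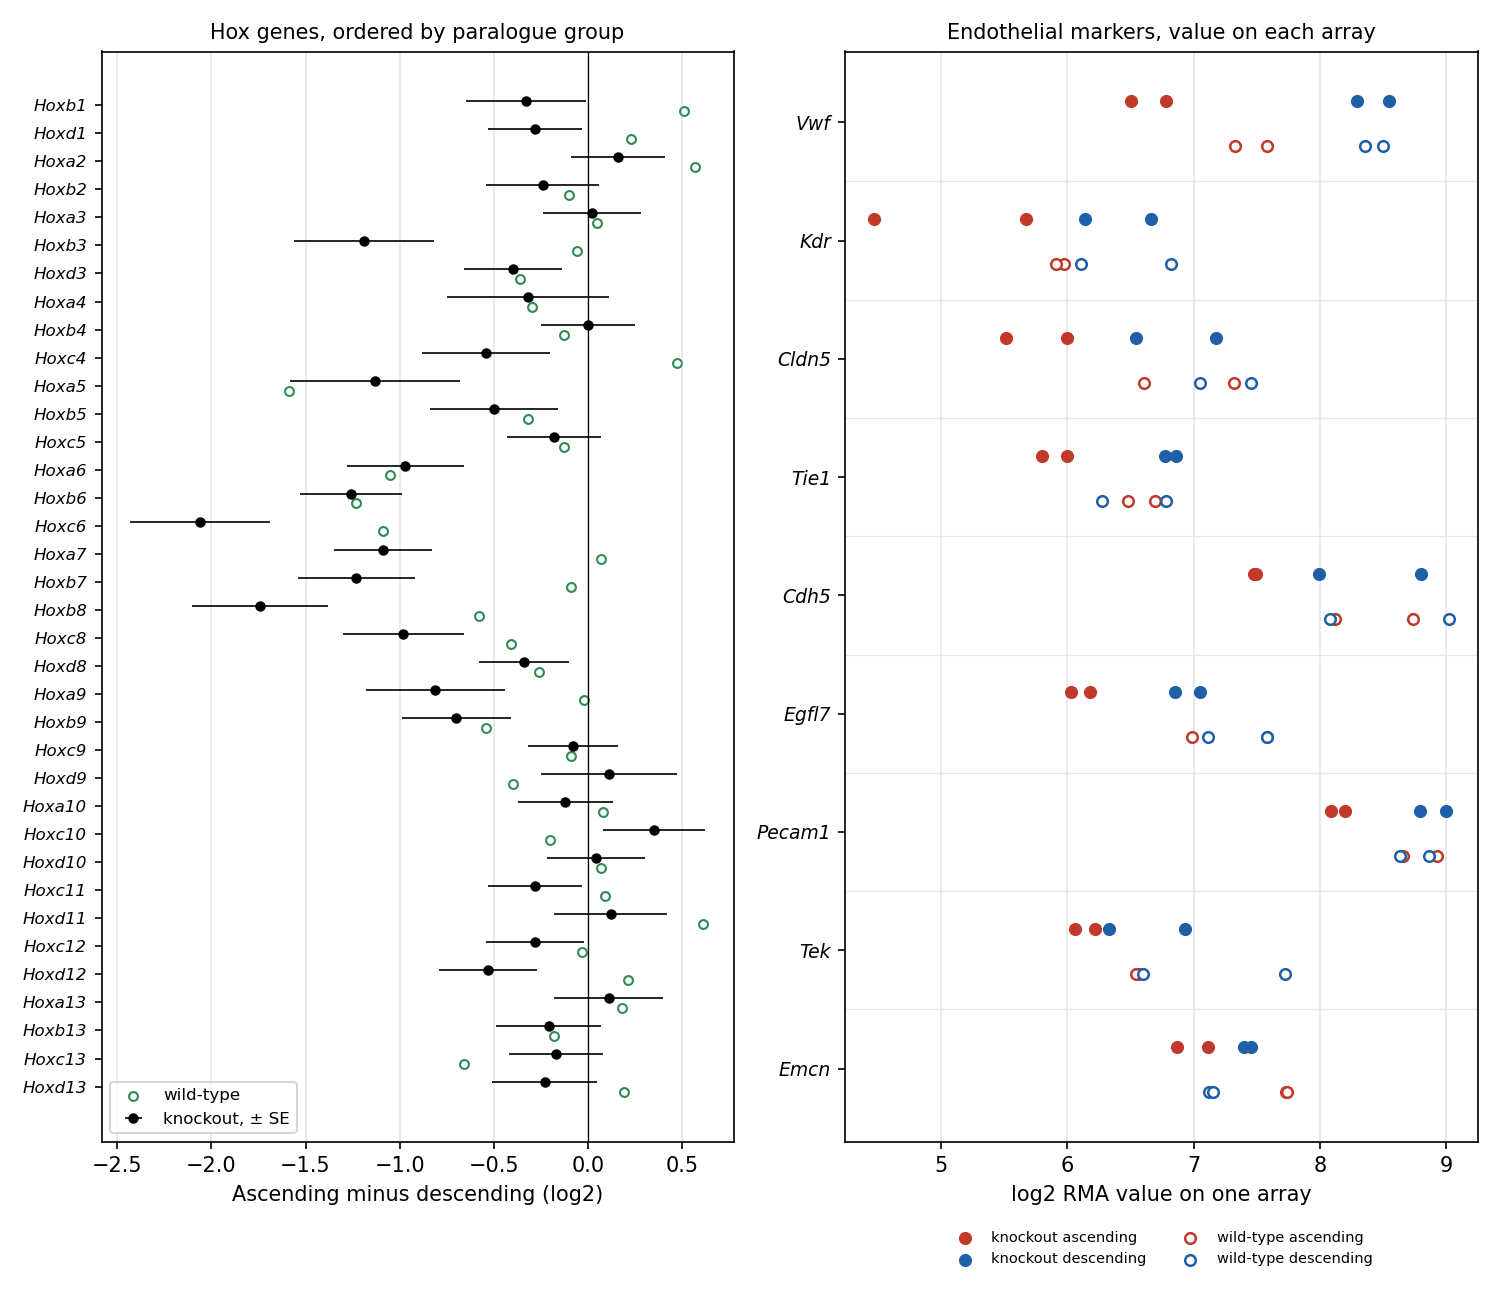
Left, segment difference (ascending minus descending, log2) of 36 Hox genes ordered by paralogue group, black for knockout with its standard error and green for wild-type. Right, log2 RMA value on each array for the 9 endothelial markers, filled for knockout and open for wild-type, red for ascending and blue for descending. Groups 6 to 8 reach the lowest knockout values, down to -2.06 for Hoxc6, and in all 9 endothelial markers the filled red points lie left of the filled blue ones.

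Other transcription factors of position stood on both sides. Tcf21, made in epicardial and other mesothelial-lineage mesenchyme, had 7.10 and 6.74 in knockout ascending and 5.67 and 5.64 in knockout descending aorta, a difference of 1.27 (SE 0.32, limma adjusted p = 0.774). In wild-type it was called, at 8.05 and 7.19 against 4.72 and 4.51, a difference of 3.01 (limma adjusted p = 0.0422), and the difference between genotypes was -1.74 (limma adjusted p = 1). The heart and outflow factors Hand2 (0.65; wild-type 1.22) and Tbx20 (0.72; wild-type 1.08), and Osr2 (1.00; wild-type 1.67), had the same order in both genotypes. Tcf21 and Osr2 are members of the list of descending mesoderm and axial position factors, although both were higher in the ascending segment. The differences of Hand2, Tbx20 and Osr2 were smaller in the knockout, though no test separated the genotypes. On the descending side stood Foxd1 (-1.33), Nr2f2, a factor of veins and mesenchyme (-1.0), Meox2, a factor of somites (-0.92), Snai2 (-0.99) and Prrx1 (-0.78). Snai2 and Prrx1 are members of the list of neural crest factors, although both were lower in the ascending segment. Tbx5, a factor of the forelimb and of the inflow part of the heart, had 4.61 and 4.47 against 5.22 and 6.19 (-1.17; wild-type 0.08).

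These lists as wholes were near 0 in the knockout. Of 22 outflow and second heart field factors 11 lay above and 11 below 0 (median -0.03), and of 22 neural crest factors 12 above and 10 below (0.03). Of 23 factors of descending mesoderm and axial position 7 lay above and 16 below (-0.18), with a median of -0.06 without knockout descending replicate 1 and -0.07 without knockout ascending replicate 1. Genes of the retinoic acid pathway, which sets Hox boundaries, had 14 of 18 below 0 and a median of -0.30, with Cyp26a1, an enzyme that breaks retinoic acid down, at -0.76. That median was -0.07 without knockout descending replicate 1 and -0.19 without knockout ascending replicate 2.

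Endothelial markers were lower in the knockout ascending aorta, gene by gene. All 9 lay below 0 and in all 9 both ascending arrays lay below both descending arrays, against 20.8% of all genes. The median was -0.91 and 7 had an unadjusted p under 0.05, against 2.04% of all genes, none called. Vwf, which encodes von Willebrand factor, had 6.78 and 6.50 in knockout ascending and 8.55 and 8.29 in knockout descending aorta, a difference of -1.78 (SE 0.26, limma adjusted p = 0.156). Kdr, the main VEGF receptor, had 5.67 and 4.47 against 6.66 and 6.14 (-1.33), and Cldn5, a tight junction protein, 6.00 and 5.51 against 7.18 and 6.54 (-1.11). Tie1 (-0.91), Cdh5 (-0.91), Egfl7 (-0.85), Pecam1 (-0.75), Tek (-0.49) and Emcn (-0.43) complete the list. The median lay between -0.96 and -0.75 over the array left out, the 2 other scalings and the 2 other choices of probe sets tried.

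On the array means the knockout ascending arrays stand apart from the rest. The mean of the 9 markers was 6.61 and 6.33 in knockout ascending, 7.60 and 7.24 in knockout descending, 7.43 and 7.18 in wild-type ascending, and 7.76 and 7.26 in wild-type descending aorta. In wild-type the median segment difference was -0.12, with 6 of 9 below 0. The difference between genotypes had an unadjusted limma p of 0.0123 for Emcn, 0.0288 for Tie1 and 0.048 for Pecam1, and an adjusted p of 1 for each. In RNA from whole tissue, fewer endothelial cells and less RNA per endothelial cell cannot be told apart. Outside the marker list, 5 genes of the vasoactive and guidance lists, chosen after their values were seen and with no count of others like them, were lower too: Calcrl, the receptor subunit for adrenomedullin and CGRP, stood at -1.40 (wild-type -1.33), its partner Ramp2 at -0.78, the endothelial nitric oxide synthase gene Nos3 at -0.74, Plxnd1, a semaphorin receptor, at -1.07 (wild-type -1.10), and Nrp1, a co-receptor of VEGF, at -0.70. Calcrl and Plxnd1 thus had the order of the segments in both genotypes.

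Markers of tissue next to the aorta differed as well. Of 8 cardiomyocyte markers 6 were lower in knockout ascending aorta (median -0.97), with Myl7, the atrial myosin light chain, at 8.25 and 7.99 against 10.55 and 10.84 (-2.58, SE 0.63), Myh6 at 5.58 and 5.05 against 7.58 and 7.12 (-2.04), Tnni3 at -1.28 and Actc1 at -1.13. The list mean was 7.10 and 6.91 on the ascending and 8.07 and 7.94 on the descending knockout arrays, against 6.63 to 7.43 on the wild-type arrays. Nppa (0.04) and Tnnt2 (0.35) did not share that order, and in wild-type the list median was -0.25. All 4 measured sympathetic neuron markers were lower too (median -0.83), with the catecholamine enzymes Dbh at 4.0 and 4.19 against 5.04 and 6.14 (-1.49) and Th at -0.63, and with Stmn2 at -1.03. Their mean was 5.13 and 5.19 on the ascending and 5.92 and 6.21 on the descending knockout arrays, and 5.23 to 5.61 in wild-type. Scg2, above, is made by cells of that kind, and the part of these cells in its difference was not tested.

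Fat markers had the order of wild-type, most with a smaller difference. All 6 brown fat markers were lower in ascending aorta, with a median of -0.62 in the knockout and -1.12 in wild-type. Adipoq had 5.28 and 4.36 against 6.09 and 6.42 (-1.43), a larger difference than in wild-type (-0.96), and Cox8b 7.26 and 6.2 against 7.94 and 8.16 (-1.32; wild-type -2.25). Ucp1, the heat-producing protein that defines brown fat, had 4.22 and 4.42 against 4.78 and 4.36 in the knockout (-0.25) and 5.37 and 4.75 against 8.80 and 7.04 in wild-type (-2.86). The wider adipocyte and lipid list had 21 of 24 members below 0 (median -0.23; wild-type -0.74), and the mitochondrial list 21 of 23 (median -0.18; wild-type -0.34), of which Cox8b is also a member. Without knockout ascending replicate 2 the adipocyte median was -0.37, and without knockout descending replicate 1 the mitochondrial one was -0.09. Car3, the carbonic anhydrase of fat and muscle, had the largest difference of any gene in the knockout, at 7.29 and 4.65 against 10.02 and 9.77. That is -3.92 (SE 0.77), or 15.2-fold lower, with a limma adjusted p of 0.503 and ascending arrays far apart. It stands outside the rule and was chosen after its values were seen. The mean of the 6 brown fat markers had the same order without overlap in both genotypes, at 6.13 and 6.01 against 6.76 and 6.87 in the knockout and 7.27 and 6.56 against 8.82 and 8.07 in wild-type.

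Skeletal muscle markers were higher in wild-type ascending aorta and split between arrays in the knockout. All 8 were above 0 in wild-type, with a median of 2.34, and 7 of 8 in the knockout, with a median of 0.21 that rested on single arrays: it was -0.25 when ascending replicate 1 was left out, 0.73 when ascending replicate 2 was and 0.38 when descending replicate 2 was. Mylpf, a fast muscle myosin light chain, had 7.13 and 5.26 against 5.22 and 7.0 in the knockout (0.09) and 8.51 and 9.74 against 5.62 and 4.63 in wild-type (4.0). Ckm, muscle creatine kinase, had the opposite order in the genotypes, at -1.14 and 2.12. Mesothelial (0.07), thymocyte (0.20), Schwann cell (-0.02), cartilage (-0.18), oesophageal (-0.06), fibroblast (-0.12) and macrophage (-0.25) marker lists had medians between -0.25 and 0.20. The thymocyte median was 0.01 without knockout ascending replicate 1 and 0.07 without knockout descending replicate 1, and the macrophage median was -0.13 without the latter. In the knockout 1 of the erythroid markers was measured, Slc4a1 at -0.23.

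**Figure D4:**
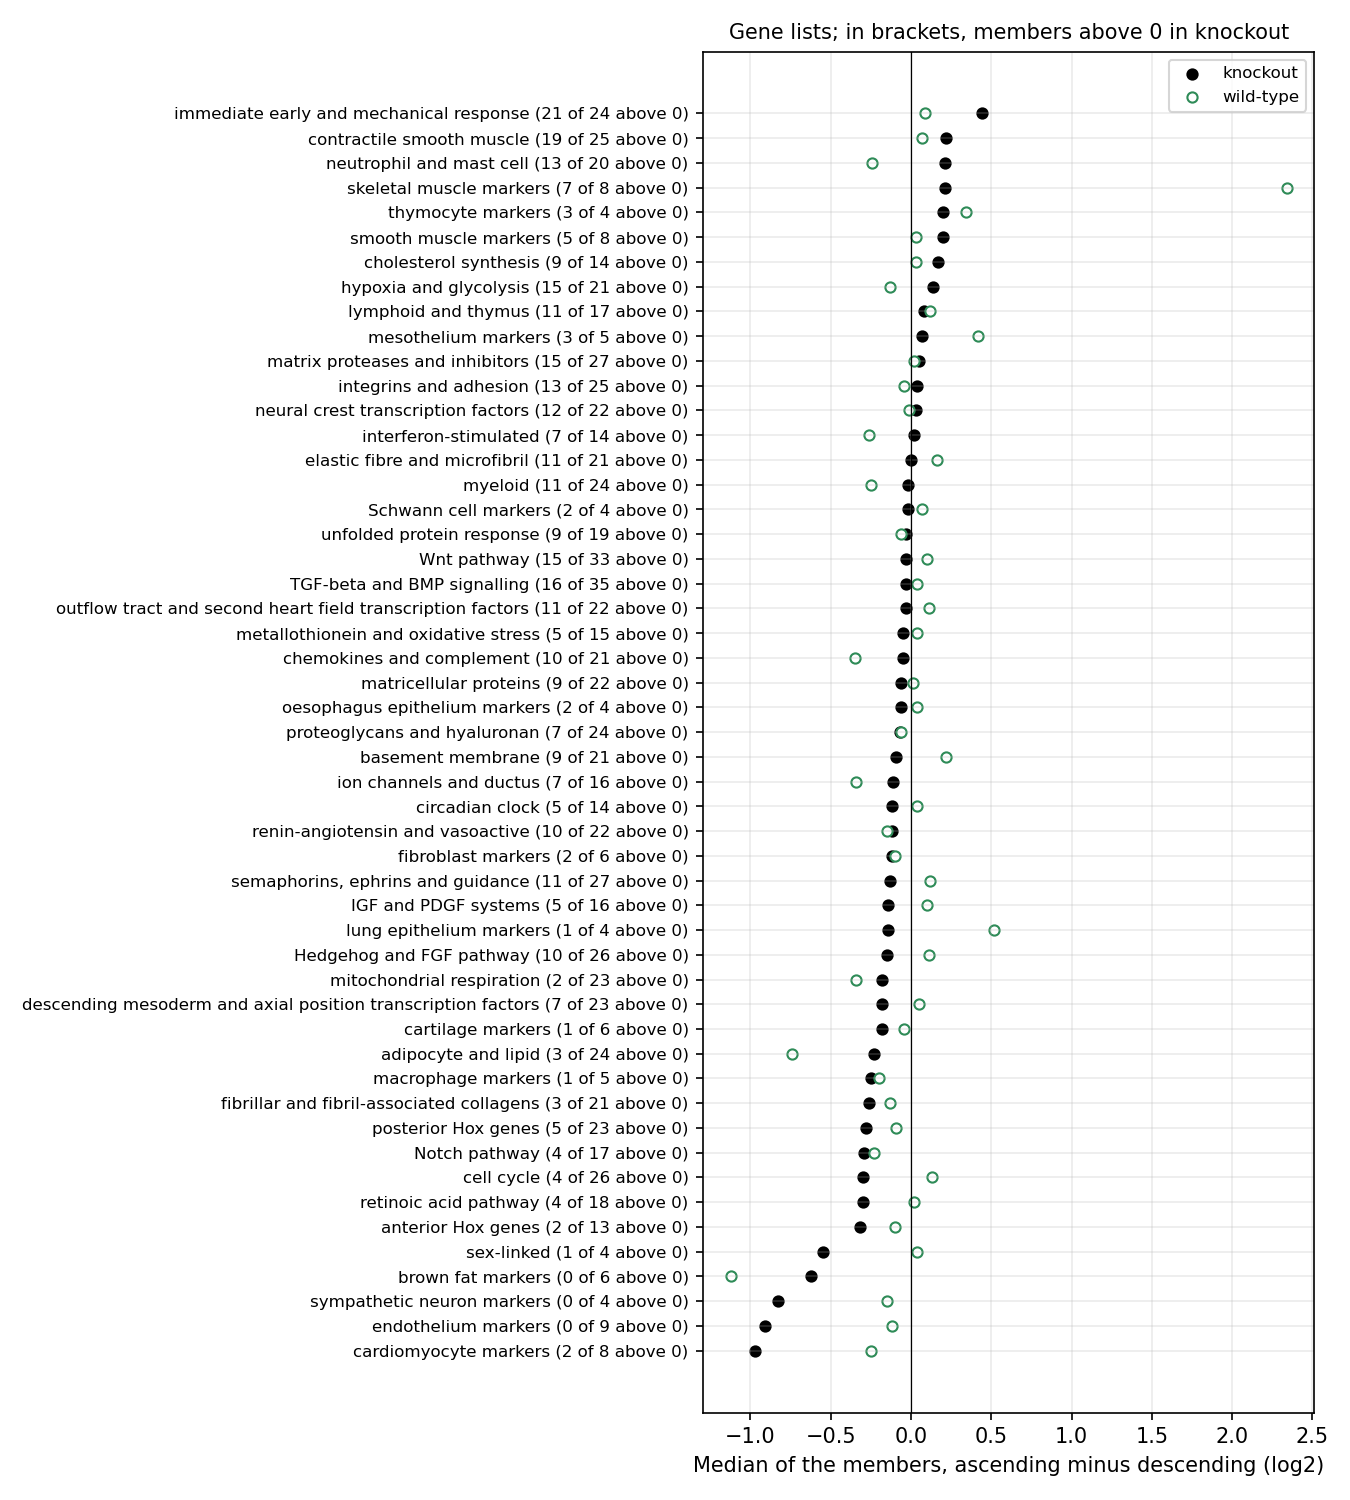
Median segment difference (ascending minus descending, log2) of 51 gene lists, black for knockout and green for wild-type, with the number of members above 0 in the knockout in brackets. Cardiomyocyte (-0.97), endothelial (-0.91), sympathetic neuron (-0.83) and brown fat markers (-0.62) lie lowest in the knockout and the immediate early list (0.44) highest; skeletal muscle markers lie at 2.34 in wild-type and 0.21 in the knockout.

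Genes of the elastic wall had small differences between the knockout segments. Eln, which encodes elastin, had 12.02 and 12.09 in knockout ascending and 12.01 and 12.12 in knockout descending aorta, a difference of -0.01 (SE 0.24). The groups overlap. Fbln5, a fibulin of the same fibres, stood at -0.04, Lox, which cross-links elastin and collagen, at 0.09, and Ace at 0.07. Of 21 genes of elastic fibres and microfibrils 11 lay above and 10 below 0, with a median of 0.00. The exception by size was Efemp1, which encodes fibulin-3, a relative of the missing protein. It had 7.89 and 7.47 against 6.75 and 5.81, a difference of 1.40 (SE 0.46, limma adjusted p = 1), and 1.75 in wild-type. Fbn2, the fetal fibrillin, stood at -0.39 in the knockout and 0.74 in wild-type.

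Contractile genes lay slightly above 0 and collagens slightly below. Of 25 contractile smooth muscle genes 19 were higher in ascending aorta, with a median of 0.22 that was 0.12 without knockout ascending replicate 2. A limma unadjusted p under 0.05 was found in 0 of them, against 4.04% of all genes. Acta2 had 12.36 and 12.45 against 12.22 and 12.10 (0.24), Tagln stood at 0.21, Myh11 at 0.18, Lmod1 at 0.46 and Srf, the factor that drives these genes, at 0.53. Of 21 fibrillar and fibril-associated collagens 18 were lower (median -0.26; wild-type -0.13), and in 16 both ascending arrays lay below both descending arrays, against 20.8% of all genes. Col11a1 had 7.14 and 6.97 against 7.79 and 7.79 (-0.73), Col12a1 8.87 and 8.95 against 9.58 and 9.39 (-0.58), Col6a1 stood at -0.45, Col1a1 at -0.32 and Col3a1 at -0.20. Col8a1, a short-chain collagen of vessels, was at 8.22 and 8.65 against 8.94 and 8.71 (-0.39). Of 21 basement membrane genes 9 lay above 0 (median -0.09).

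Matricellular proteins and proteoglycans were split. Thbs1, thrombospondin 1, had 9.5 and 10.05 against 8.61 and 9.06 (0.94; wild-type 0.31), and Ccn2, the connective tissue growth factor, 11.53 and 11.98 against 10.38 and 11.25 (0.94; wild-type 0.70). On the other side stood Sparcl1, at 8.71 and 8.15 against 9.38 and 9.64 (-1.08; wild-type -1.15), and Smoc1 (-0.60). Over 22 matricellular genes 9 lay above 0 (median -0.06). At a limma unadjusted p under 0.05, 3 were higher and 2 lower, against 2% and 2.04% of all genes. Acan, which encodes the large proteoglycan aggrecan, had 10.07 and 10.32 against 9.48 and 9.15 (0.88; wild-type 1.25). Chad, a leucine-rich repeat protein of cartilage matrix, had 4.91 and 4.99 against 6.14 and 5.94 (-1.09; wild-type -0.07). Of 24 proteoglycan and hyaluronan genes 7 lay above 0, with a median of -0.07.

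Signalling lists had medians near 0 except that of Notch, and single members differed. Among 35 genes of TGF-beta and BMP signalling 16 lay above 0 (median -0.03): besides Inhba, the ligands Gdf6 (5.29 and 5.07 against 4.51 and 4.37, 0.75) and Bmp4 (0.73; wild-type 0.63) stood higher, and Gdf10 lower, at 8.23 and 8.20 against 9.09 and 9.01 (-0.83; wild-type -0.68). Among 33 Wnt genes (median -0.03), the ligand Wnt16 had 6.34 and 6.48 against 5.23 and 5.49 (1.06; wild-type 1.29). The antagonist Dkk2 (-1.06), the ligand Wnt5a (4.17 and 4.21 against 5.18 and 5.16, -0.98) and the receptor Fzd4 (-0.74) stood lower. Of 17 Notch genes 13 were lower (median -0.29; wild-type -0.23), with the target Nrarp at -0.67 and the modifier Mfng at -0.66; that median was -0.18 without knockout descending replicate 1 and -0.19 without knockout ascending replicate 2. Of 26 Hedgehog and FGF genes 16 were lower (median -0.15), and the feedback inhibitor Spry4 stood at 0.69.

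Several guidance and vessel tone genes had the order of wild-type. Sema3c, a semaphorin needed for outflow tract septation, had 7.34 and 7.33 against 6.62 and 6.05 (1.00; wild-type 0.58), and Robo1, a Slit receptor, stood at 0.77 (wild-type 0.72), while Slit2 stood at -0.62 (wild-type -0.78). The list of 27 had 11 above 0 (median -0.13). Agtr2, the type 2 angiotensin receptor, had 7.96 and 8.01 against 9.08 and 8.78 (-0.94; wild-type -1.14). Kcna5, a voltage-gated potassium channel, had 4.86 and 4.34 against 6.03 and 5.68 (-1.26; wild-type -0.02), and the potassium channel subunits Kcnj8 (-0.93) and Abcc9 (-0.64) and the prostaglandin transporter Slco2a1 (-0.85) were lower too. The 22 vasoactive genes had a median of -0.12 and the 16 channel and ductus genes -0.11.

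Immediate early genes were the list highest in knockout ascending aorta. They encode transcription factors and secreted proteins made soon after a growth factor or stretch. Of 24 measured, 21 lay above 0, with a median of 0.44 against 0.09 in wild-type, and in 11 both ascending arrays lay above both descending arrays, against 18.3% of all genes. At an unadjusted p under 0.05, 5 were higher, against 2% of all genes: Ier3 (1.03), Atf3 (0.96), Ccn2, Egr3 (0.88) and Egr2 (0.74). Ier3 had 8.62 and 8.94 against 7.19 and 8.30, Atf3 6.57 and 6.34 against 5.64 and 5.34, and Egr3 5.75 and 5.89 against 4.60 and 5.28. Egr1 had 7.94 and 8.51 against 7.32 and 7.70 (0.71), while Fos (0.15), Jun (0.17) and Fosb (-0.17) were nearer to 0 and Klf4 stood at -0.59. The mean of the list was 7.63 and 7.61 in knockout ascending, 7.01 and 7.35 in knockout descending and 6.28 to 6.96 on the wild-type arrays. Its median was 0.21, with 18 of 24 above 0, without knockout descending replicate 1. Ptgs2, Hbegf, Inhba and Il1b are not members of the list.

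Cell cycle genes leaned the other way. Of 26 measured 22 were lower in knockout ascending aorta, with a median of -0.30 against 0.13 in wild-type. In 15 both ascending arrays lay below both descending arrays, against 20.8% of all genes. Only 1 was lower at a limma unadjusted p under 0.05, against 2.04% of all genes, and 0 were higher. Birc5, which encodes survivin, had 6.54 and 6.93 against 7.47 and 7.49 (-0.75; wild-type 0.60), and Cdc20, an activator of the mitotic ubiquitin ligase, 6.94 and 7.13 against 7.89 and 7.47 (-0.64). The difference between genotypes for Birc5 was -1.35 (limma unadjusted p = 0.00582, adjusted p = 1).

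Genes of neutrophils and mast cells stood on both sides. Of 20 measured 13 lay above and 7 below 0 (median 0.21; wild-type -0.24), and at an unadjusted p under 0.05 there were 4 higher and 3 lower, against 2% and 2.04% of all genes. The 4 higher ones are made by neutrophils: S100a9 had 10.31 and 10.12 against 8.68 and 9.32 (1.21), Mpo, myeloperoxidase, 5.88 and 6.08 against 5.16 and 5.00 (0.90), Mmp8 stood at 0.81 and Cxcr2 at 0.72. The 3 lower ones are mast cell proteases, with Tpsb2 at -1.06, Mcpt4 at -0.95 (wild-type -2.29) and Cpa3 at -0.79 (wild-type -1.35). Il1b, the cytokine interleukin-1 beta, had 6.25 and 4.94 against 3.98 and 3.53 (1.84; wild-type 0.32), with both ascending arrays higher but far apart. The eosinophil chemokine Ccl11 had 6.26 and 7.01 against 8.13 and 8.38 (-1.63; wild-type -1.86). Cxcl13, a B cell chemokine called in wild-type at -2.79 (limma adjusted p = 0.0422), had 7.97 and 7.80 against 8.89 and 8.47 in the knockout (-0.80), and the difference between genotypes was 1.99 (limma adjusted p = 1). Over 24 myeloid genes the median was -0.02, with Ptprc, the common leukocyte antigen, at 0.77. Over 17 lymphoid and thymus genes 11 lay above 0 (median 0.08). Among its T cell genes Cd8a (1.03) and Cd3d (0.84) stood higher, Cd8b1 (0.31) and Cd3e (0.08) lay nearer to 0, and Cd4 was lower, at 5.08 and 4.69 against 5.33 and 5.42 (-0.49).

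Of 484 microRNA genes on the array 26 (5.37%) had an unadjusted p under 0.05, against 4.04% of all genes. MicroRNA genes were outside the ranking, and the 3 with the smallest p are shown, chosen after their values were seen. Their 5p products follow 5′ to 3′ from RefSeq on GRCm38.p6, with the seed (bases 2 to 8) in capitals; the seeds differ. They lie at chr1:137966650-137966673 (plus strand), chr1:185313610-185313630 (plus strand) and chrX:66780803-66780824 (minus strand).
mmu-miR-181b-5p: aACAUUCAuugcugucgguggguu
mmu-miR-215-5p: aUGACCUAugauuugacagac
mmu-miR-883a-5p: uGCUGAGAgaaguagcaguuac
Mir181b-1 had 4.36 and 4.78 in knockout ascending and 2.56 and 2.08 in knockout descending aorta, a difference of 2.25 (limma adjusted p = 0.105), against 0.09 in wild-type. Mir215 had 2.79 and 2.97 against 4.78 and 5.81 (-2.41, limma adjusted p = 0.155; wild-type -0.95). Mir883a had 3.50 and 3.15 against 1.48 and 1.65 (1.76, limma adjusted p = 0.187; wild-type -0.14). All these knockout values but the 5.81 of Mir215 lie below the array medians of 4.98 to 5.08, and the deposited values carry no detection call. A probe set on such a gene reads labelled copies of longer RNA from the locus, so these values are not levels of the mature microRNAs.

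Whether the segment difference itself depends on fibulin-4 was tested with limma's interaction term. No gene passed (0 of 22180, 0%), and the smallest adjusted p was 0.523. An unadjusted p under 0.05 was found in 733 genes (3.3%), below the 5% that no difference in any gene gives. The share depends on the arrays kept. It rose above 5% in some fits that left out wild-type arrays, which leave 1 array in a group. A share below 5% therefore does not show that the segment difference is the same in both genotypes. The smallest p belonged to Zfp119b, a zinc finger gene, at 3.69 and 3.02 against 5.04 and 5.64 in the knockout (-1.99) and 4.78 and 4.70 against 2.94 and 3.42 in wild-type (1.55). Its difference between genotypes was -3.54 (limma adjusted p = 0.523). Ckm (-3.25), Crisp3 (-2.41), Ahcy (-2.21) and Magea6 (-1.70) followed in that direction, and Scgb2b24 (2.12), Cxcl13 (1.99), Mfsd4b3-ps (1.87), Msr1 (1.80) and Ereg (1.71) in the other. The median standard error of a segment difference was 0.3 and that of a difference between genotypes 0.424, so a difference between genotypes is measured less finely than one between segments. Wild-type arrays also vary more, with a median SD between the arrays of a group of 0.27 in ascending and 0.24 in descending aorta, against 0.18 and 0.17 in the knockout.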

How the data were processed

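Expression was measured in pools of aortic segments of newborn mice on 8 Affymetrix arrays. The authors deposited 1 log2 value per probe set and array, and the submitters' processing notes name RMA and Affymetrix Expression Console. Neither their versions nor the probe set build is stated in the labels. RMA compresses differences of dim genes. Of 41345 probe sets, 23521 had 1 gene symbol in the platform annotation, 1814 had several and 16010 none; 23328 matched RefSeq (GRCm38.p6) by gene identifier. Where a gene had several probe sets (1082 genes), that of highest mean was used, for 22180 genes in all.

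One model with 4 group means took in all 8 arrays (limma 3.58.1, R 4.3.3; 4 residual and 5.52 prior degrees of freedom). Contrasts were ascending minus descending in each genotype and their difference. Called means an adjusted p (Benjamini-Hochberg, all genes) under 0.05. The code was tested on simulated data with each gene's fitted spread. Of 67 genes given a log2 difference of 1 between the knockout segments, 11 (16.4%) were called. At a difference of 2 it was 61 of 67, at 3 it was 66 of 66, and 13 calls were false. Most differences of 1 were thus missed in the simulation. The planted differences themselves ease the adjustment over all genes, and the fitted spread was taken as the true one. These shares therefore do not carry over to the data, where Ptn (2.57) and Hhip (-2.60) were not called. Precision is limited by the number of arrays. Genotype labels were not checked against the targeted gene, which was not analysed here.

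The comparison and 52 gene lists (861 of 934 entries measured) were chosen with earlier results of these data known. Lists are described by counts and medians, without a set test. Named genes are up to 15 called genes per direction, filled to 10 by the smallest unadjusted p among genes whose knockout arrays do not overlap. Predicted genes, small RNAs, olfactory, vomeronasal and taste receptors and immunoglobulin and T cell receptor segments were left out. Up to 4 members of each list with the smallest p, Hox, sex-linked and 12 vessel wall genes, and 5 genes per direction of the difference between genotypes were added. Other genes named were chosen after their values were seen.

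Alternatives were median centring, a second quantile normalization, no dim genes, the mean of probe sets, every row, a replicate block, only the arrays compared, array weights, trend and robust options, leaving out each array or both narrow wild-type arrays, and a threshold of 0.1. Figures used matplotlib 3.10.9.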

Additional observations from a re-analysis of the deposited data

Results flagged for a closer look

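In 8 of 27 genes looked at, both knockout arrays of one segment lay above both of the other while the wild-type arrays were in the opposite order without overlap, as 4.15% of all genes do. The difference of the segment differences (knockout minus wild-type, log2) was -3.54 for Zfp119b, -3.25 for Ckm, -2.41 for Crisp3, -2.21 for Ahcy and -1.70 for Magea6, and 1.87 for Mfsd4b3-ps, 1.80 for Msr1 and 1.71 for Ereg. None passed limma's test of that difference: the adjusted p was 0.523 for Zfp119b, 0.989 for Crisp3 and 1 for the other 6. The genes were named partly for a small p in this same difference, so their number is not independent of it. Crisp3, Magea6 and Mfsd4b3-ps are dim, with a mean level in the lowest 5.59%, 1.36% and 11.3% of genes. Msr1, a scavenger receptor of macrophages, had 5.87 and 6.22 against 5.62 and 5.68 in the knockout and 4.41 and 4.84 against 6.21 and 5.86 in wild-type. Ereg, a ligand of the EGF receptor like Hbegf, had 6.27 and 6.48 against 5.64 and 5.94, and 5.10 and 5.07 against 6.41 and 6.02.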

How the results depend on the processing

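For the knockout segment difference, 0 genes were called in the main setting, 2 without the dimmest 25% of genes, 2 with limma's trend and robust options, 2 at an adjusted p under 0.1 and 18 with array weights (8 higher, 10 lower; 14 of the 20 ranked genes). The 2 genes were Ptn and Hhip each time. Leaving out each array in turn gave 0 to 0. The wild-type count of 2 was 1 after a second quantile normalization, 0 over every row, 0 with only the 4 arrays compared, 0 with array weights, 9 without both narrow wild-type arrays, and 0 to 23 when each array was left out, with 23 without wild-type ascending replicate 2. The count for the difference between genotypes was 0, 0 to 0 when each array was left out, and 1 without both narrow wild-type arrays. Groups share replicate numbers. Deviations of same-numbered arrays correlated between -0.0778 and 0.292 over the 6 pairs of groups, with the highest value between the wild-type segments. Between the knockout segments the correlation was -0.0168, so the numbers were not taken as pairing the arrays. Whether they pair the wild-type arrays was not tested. With the replicate number as a block the counts were 0 in the knockout, 1 in wild-type and 0 between genotypes; 1020 genes then had an unadjusted p under 0.05 in the knockout, against 895. All 20 ranked genes kept their direction in every setting, which the rule of non-overlapping arrays fixes for those that leave arrays out. Of 4225 values of 223 named genes 19 moved beyond the replicate SD and 20 passed the threshold. The count of 19 is no measure of stability. Leaving out a knockout array cannot shift a gene's difference beyond that SD, and leaving out wild-type arrays does not change it. Of 676 medians of 52 lists, 73 moved, and settings that leave out only wild-type arrays cannot move these either. Small list medians depend on single knockout arrays: leaving out descending replicate 1 gave -0.01 for fibroblast markers, -0.05 for guidance genes and -0.04 for channel and ductus genes, and leaving out ascending replicate 1 gave -0.05 for Hedgehog and FGF genes, -0.01 for vasoactive genes and 0.12 for lung epithelium markers. The number of genes with an unadjusted p under 0.05 in the knockout lay between 556 and 1910 over all settings.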
